A study of Mus musculus with 23 samples.

Results

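Interferon-stimulated genes are genes that a cell switches on after an interferon, or another sign of infection, has been sensed. A set of 32 such genes was followed in mouse co-cultures of pancreatic stellate cells (PSCs) and pancreatic tumour organoids, out of 35523 genes read. The genes were named by symbol, from their known role and not from a threshold on these values, and all 32 were found. All 32 were above the low-count limit of the KO comparisons, of the comparison of cell types and of the comparison of PSC parents, and 30 were above it between organoid lines.

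PSCs are fibroblast-like cells of the pancreas, and the organoids here are clusters of tumour cells kept in a gel. They shared Matrigel for 3.5 days, in a medium the labels call reduced or control, and were parted by flow sorting into a PSC fraction and an organoid fraction. The 8 PSC KO libraries came from Egfr knockout clones, namely A3 and B4 of the parent PSC4 and C5 and D4 of the parent PSC5, against 4 WT libraries of the lines called Rosa. The 7 organoid libraries grown with KO PSCs and the 4 grown with WT PSCs came from the same cultures, and no Egfr edit of the organoids is named. PSC5 lines were grown with T6-LOH organoids alone, and PSC4 lines with T12-LOH, T69A and T6-LOH organoids. Each of these 4 co-cultures has 1 Rosa library and 2 KO libraries per fraction, except that the organoid library of T69A with clone A3 was not analysed here. Libraries are called by the number that opens their title. Each combination of organoid line and PSC line has at most 1 library per fraction, so no culture is repeated. Libraries of 1 clone share a line. P-values here reflect library-to-library spread alone, which may be technical or lie in culture or clone.

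Libraries held 21823084 to 34828131 estimated counts. Egfr, the targeted gene, stood at 14.9 to 80.6 TPM (a level scaled for depth and gene length) in KO PSCs, with a median of 24.4, against 72.2 to 110.6 TPM in WT PSCs. It was below the own Rosa library in 8 of 8 KO libraries, and nearest to it in clone D4 (80.6 TPM in library 28, against 110.6 TPM in Rosa library 26). Fibroblast markers summed to 5033 to 10250 TPM in PSC libraries and to 0.924 to 12.7 TPM in organoid libraries, while 10 epithelial markers summed to 32.3 to 186.5 TPM in PSC libraries and to 12640 to 17000 TPM in organoid libraries. The fractions therefore carried the markers of their labels, although the collagen gene Col1a2 was at 1.01 TPM in clone C5 (library 27). The 8 immune markers read summed to 18.2 to 111.8 TPM in KO PSCs and 16.05 to 158.7 TPM in WT PSCs, and to 0.202 to 5.28 TPM in organoid libraries. Nearly all of this in PSCs was Cd74, the invariant chain of MHC class II, which interferon gamma is known to induce (14.65 to 157 TPM). Ptprc, the pan-leukocyte marker, and Adgre1, a macrophage marker, were listed at 0 in all PSC libraries.

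Type I interferons bind the receptor of Ifnar1 and Ifnar2, whose kinases Jak1 and Tyk2 pass the signal on. Stat2 and Irf9 take part in the complex ISGF3, which binds the interferon-stimulated response element (ISRE) in front of its target genes. Interferon gamma acts at other sites, called GAS. The induced proteins block viral entry and copying, sense viral nucleic acids, and limit the response itself.

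Promoter windows of 250 bases before to 50 bases after the gene start were taken from RefSeq (build GRCm38.p6, which is not the build of the submitters). They matched 24 of the 32 genes, and Usp18, Oas2, Dhx58, Zbp1, Mx1, Mx2, Rtp4 and Ifi27l2a had no match. The ISRE core GAAANNGAAA, read on both strands and counted with overlaps, was found in 15 of the 24 genes, and 3.99% of 27025 genes held it. The GAS letters TTCNNNGAA were found in 6 of the 24 genes, and 9.55% of 27025 genes held them. The motifs overlapped in Bst2 and in Ifitm3. These stretches are shown because the genes recur in the results and range from several ISRE cores to none. Each is given 5′ to 3′ on the strand of the gene, with 15 bases on either side of the cores, or of the GAS in Irf1. Capitals mark the ISRE cores and, in Bst2 and Irf1, the GAS.
Isg15, chr4:156200860-156200911, minus strand: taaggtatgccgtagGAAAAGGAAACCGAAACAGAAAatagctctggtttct
Ifit1, chr19:34640770-34640828, plus strand: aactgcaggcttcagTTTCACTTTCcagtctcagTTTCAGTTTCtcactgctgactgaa
Ifit3, chr19:34583358-34583431, plus strand: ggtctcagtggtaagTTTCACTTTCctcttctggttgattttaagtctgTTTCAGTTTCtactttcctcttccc
Ifit3b, chr19:34607754-34607827, plus strand: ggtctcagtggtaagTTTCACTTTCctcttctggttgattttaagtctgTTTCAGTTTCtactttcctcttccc
Gbp2, chr3:142620589-142620628, plus strand: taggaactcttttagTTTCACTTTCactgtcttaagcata
Bst2, chr8:71537572-71537617, minus strand: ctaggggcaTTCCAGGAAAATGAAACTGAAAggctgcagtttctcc
Rsad2, chr12:26456548-26456587, minus strand: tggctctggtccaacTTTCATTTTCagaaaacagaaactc
Stat2, chr10:128270261-128270300, plus strand: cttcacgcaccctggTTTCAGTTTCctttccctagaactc
Irf1, chr11:53769909-53769948, plus strand: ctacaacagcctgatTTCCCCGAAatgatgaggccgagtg
Isg15 held 3 overlapping cores in a row, which began 78, 72 and 66 bases before the gene start. The stretches of Ifit3 and Ifit3b were the same, letter for letter, and their longest transcripts were identical at 1663 of 1697 aligned bases. Oas1a shared 97.5% of aligned bases with Oas1g, and Mx1 shared 94.9% of 919 aligned bases with Mx2. How reads were split within these pairs is therefore uncertain, and their levels are better read together. RefSeq lists both Mx1 and Mx2 as transcribed pseudogenes in this build and the other 30 genes as protein-coding, so the levels of Mx1 and Mx2 given here are levels of RNA only. In Irf1 the window held a GAS and no ISRE core. A match is a description of letters, not of binding.

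In the PSC fraction the 32 genes covered a wide range of levels. By the median of 12 libraries, 4 genes stood above 100 TPM, 21 between 10 and 100 TPM, and 7 between 1 and 10 TPM. The highest were Ifitm3, which hinders the fusion of viruses with cell membranes (2064 TPM), Bst2, or tetherin, which holds budding virus at the surface (325 TPM), the ubiquitin-like modifier Isg15 (207 TPM) and Ifi27l2a (122 TPM). The lowest were Mx1 (2.44 TPM) and Oas3 (1.92 TPM). In organoids no gene had a median above 100 TPM, 5 lay between 10 and 100 TPM, 15 between 1 and 10 TPM, and 12 below 1 TPM. The order there was led by Bst2 (46.9 TPM), Irf1 (38.2 TPM) and Oasl1 (37.2 TPM), with the last pair closer than their spread between libraries.

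**Figure D1:**
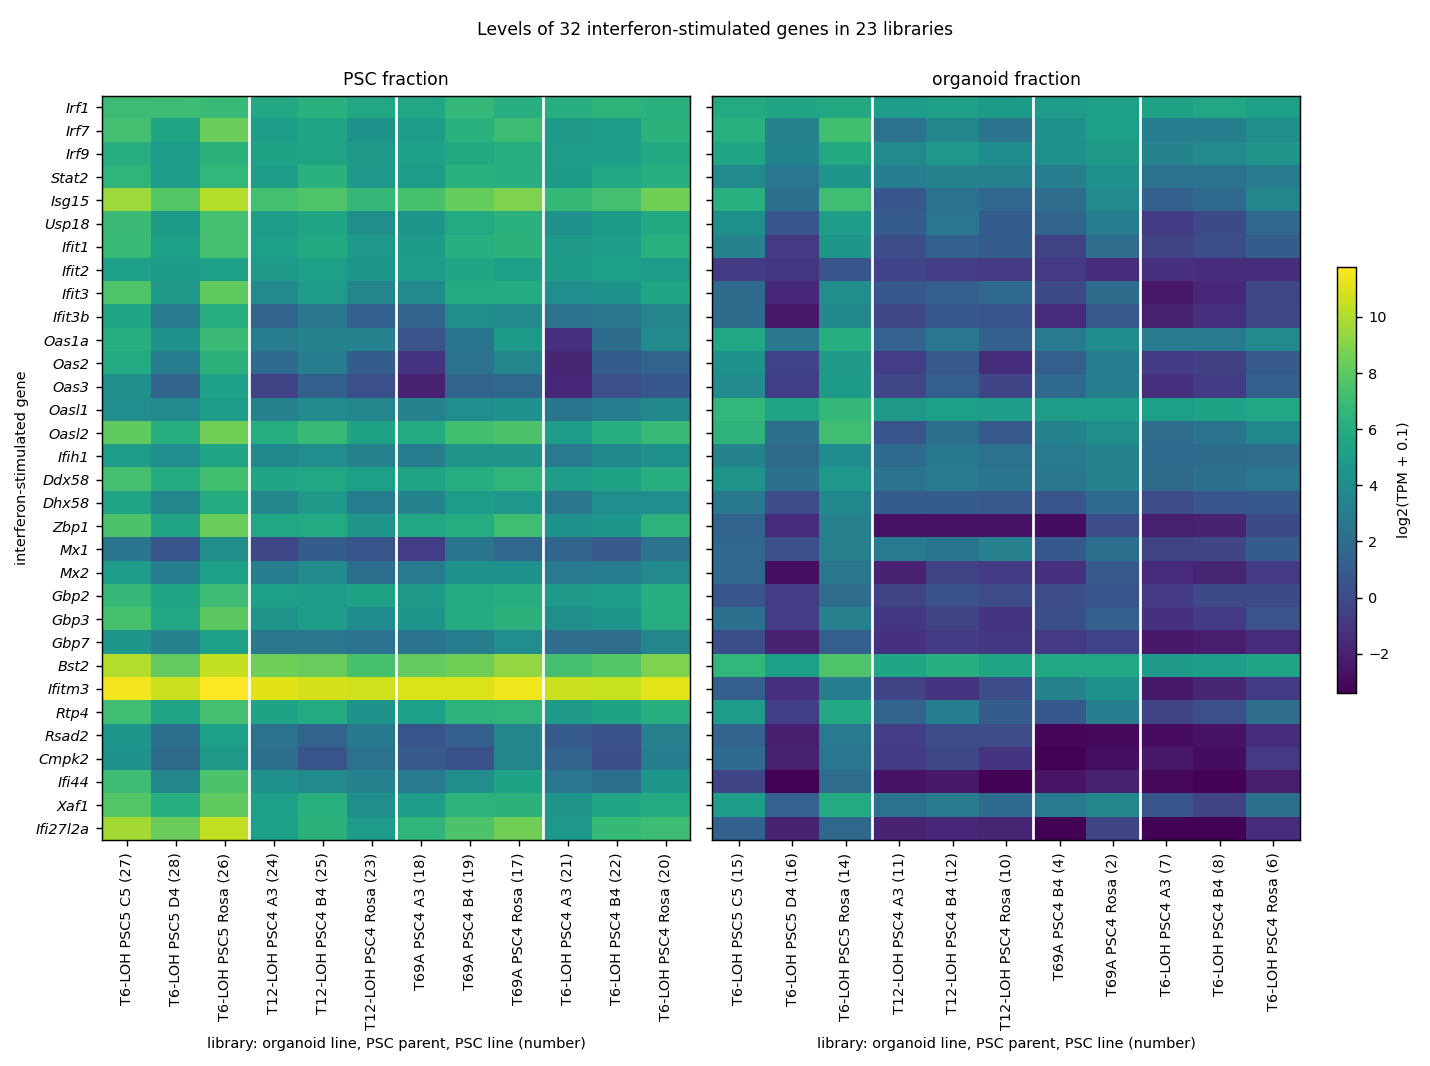
Levels of the 32 genes (rows) in the 12 PSC libraries (left panel) and the 11 organoid libraries (right panel), as log2(TPM + 0.1), with white lines between the 4 co-cultures. Most rows are brightest in PSC5 clone C5 and PSC5 Rosa of both fractions, while Ifitm3 is bright in all PSC libraries and dark in most organoid libraries.

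The same genes were far higher in PSCs than in organoids of the same cultures. Over the 11 cultures with both fractions, in a fit with culture as a block, 28 of 32 genes were higher in PSCs and 1 was lower, beside 36.3% higher and 37.6% lower of the 16227 genes tested. Their median log2 fold change was 3.35, against -0.05 over all genes tested. These calls use edgeR's quasi-likelihood test with Benjamini-Hochberg adjustment over all genes and a threshold of 0.05, as do all calls and adjusted p-values that follow unless another tool is named. Isg15 was at 106 to 1083 TPM in PSC libraries and at 1.54 to 139 TPM in organoid libraries, which gave 4.82 on the log2 scale (SE 0.35, adjusted p = 3.34e-08). The ranges of Isg15 met only through the organoids of library 14, and within each of the 11 cultures the PSC level was the higher one. Ifitm3 showed the widest gap, with 1489 to 3559 TPM in PSCs and 0.0962 to 20.9 TPM in organoids (log2 9.95, SE 0.70). Next stood Ifi27l2a (log2 8.71), Ifi44 (7.21) and Zbp1, a sensor of left-handed nucleic acids that can start cell death (6.80). For Ifitm3, Ifi27l2a, Ifi44 and Zbp1 every PSC library lay above every organoid library, as it did for 11 of the 32 genes in all, beside 21.8% of the genes tested.

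Among the regulators the gap was smaller, with log2 fold changes of 0.73 for Irf1, 0.90 for Irf9, 1.62 for Irf7 and 2.11 for Stat2. The sensors of viral RNA, Ifih1 (MDA5), Ddx58 (RIG-I) and Dhx58 (LGP2), were higher in PSCs by 1.32, 2.88 and 2.88 on the log2 scale. The OAS family, whose oligoadenylates switch on an RNA-cutting enzyme, was mixed. Oasl2 (3.25) and Oas2 (1.34) were higher in PSCs, Oas1a (0.18, adjusted p = 0.73) and Oas3 (-0.18, adjusted p = 0.55) did not pass, and Oasl1 was lower in PSCs by 1.99 (SE 0.18, adjusted p = 2.42e-07). Oasl1, which in the mouse restrains the making of Irf7, had a median of 13.2 TPM in PSCs and 37.2 TPM in organoids, and was lower in PSCs in 11 of 11 cultures. Mx1, whose intact form is a GTPase of antiviral defence, did not pass either (-0.28, adjusted p = 0.60), whereas its relative Mx2 was 4.09 higher.

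**Figure D2:**
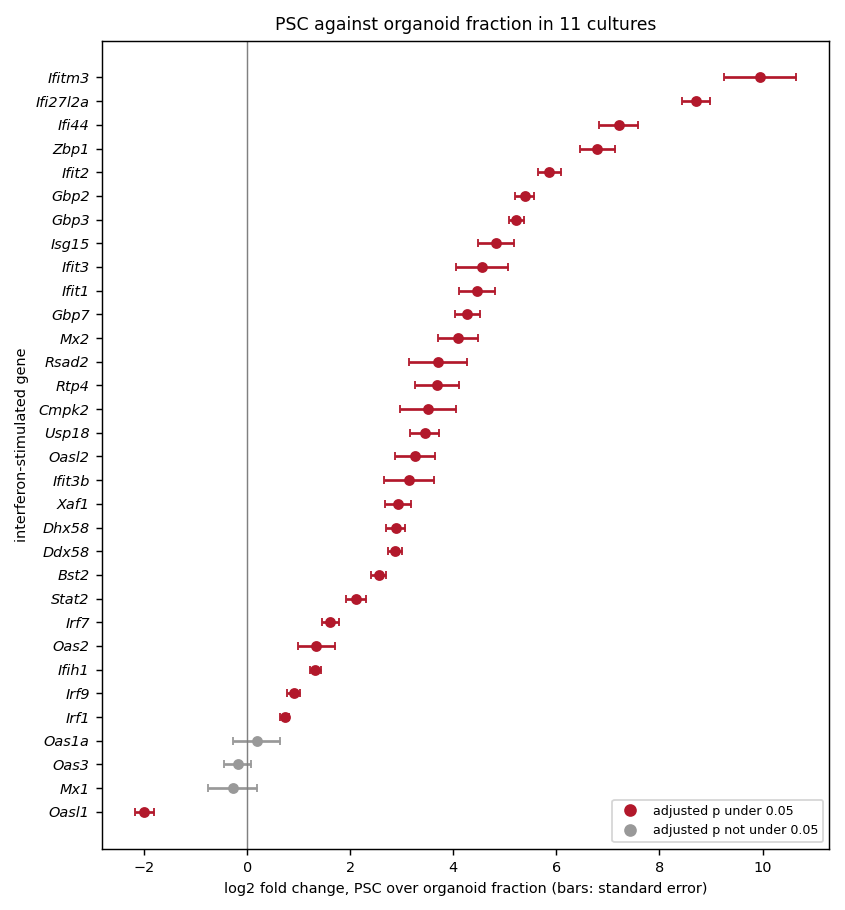
Log2 fold change of each gene, PSC over organoid fraction, with its standard error, from the fit over 11 cultures with culture as a block. Only Oasl1 is called to the left of 0 among the 32 genes, and Ifitm3 lies farthest to the right at 9.95.

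Markers of the other cell type were read in each fraction. Fibroblast markers in an organoid library summed to 0.0118 to 0.152% of those in the PSC library of its culture. The 32 genes summed to 5.05 to 11.9% of theirs, and Isg15 alone to 1.01 to 12.8%. In the organoids grown with PSC5 Rosa (library 14) these shares were 0.0362% for the fibroblast markers and 12.8% for Isg15, and in those grown with clone C5 (library 15) 0.0184% and 9.99%. Ifitm3 in an organoid library came to 0.00637 to 0.72% of the PSC level of its culture, and in 6 of 11 cultures this was at or below the share of the fibroblast markers. The same held in 3 of 11 cultures for Ifi44 and for Ifi27l2a, in 1 of 11 for Zbp1, Rsad2 and Cmpk2, and in none for the other 26 genes. The part of PSC RNA in the organoid levels of Ifitm3, Ifi44 and Ifi27l2a was not tested. In the other direction, epithelial markers in a PSC library summed to 0.237 to 1.18% of those in its organoid library.

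Within each fraction most of the genes had their highest values in the same libraries, and those came from the same cultures in both fractions. The level of PSC5 Rosa (library 26) was the highest of the 12 PSC libraries for 29 of 32 genes, and the organoids of that culture (library 14) were the highest of the 11 for 29 of 32. Clone C5 and PSC5 Rosa were the highest pair of PSC libraries for 28 genes, all but Irf1, Irf9, Ifit2 and Oasl1, and their organoids were the highest pair for 27, all but Stat2, Ifit2, Ifit3, Mx1 and Ifitm3. The mean over the 32 genes of log2(CPM + 0.5), where CPM is a count scaled for depth, was 6.67 in clone C5 and 7.13 in Rosa of PSC5, and 3.875 to 5.90 in the 9 PSC4 libraries. Clone D4 of PSC5 stood at 4.96, within the range of PSC4. The organoids grown with C5 and with Rosa of PSC5 had means of 3.71 and 4.57, those grown with D4 had 1.32, and those grown with PSC4 lines had 1.12 to 2.85. In bulk libraries, fewer cells that respond and less RNA per cell cannot be told apart.

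**Figure D3:**
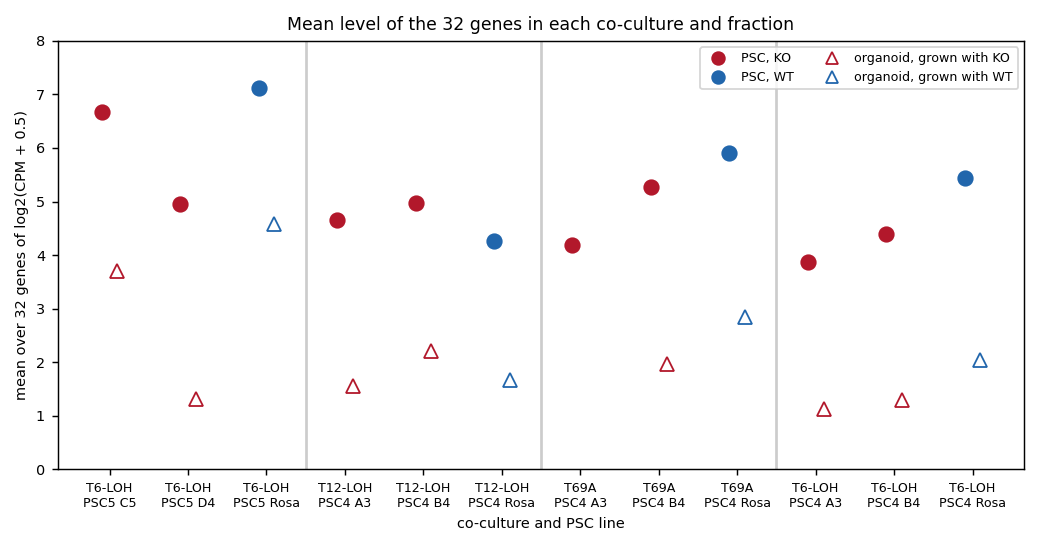
Mean over the 32 genes of log2(CPM + 0.5) in each PSC library (filled circles) and organoid library (open triangles), by co-culture, with KO in red and WT in blue. PSC5 C5 and PSC5 Rosa are highest in both fractions, PSC5 D4 is not, and the KO libraries lie above Rosa in the PSC fraction only with T12-LOH.

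The range from the lowest to the highest library differed widely between members. Its median over genes was 10.3-fold in PSCs. Ifit2, a member of the family that binds viral RNA ends, kept between 23.8 and 46.4 TPM in all PSC libraries (1.95-fold), and Irf1 between 49.7 and 133 TPM (2.67-fold). Oas2, by contrast, ran from 0.198 TPM in clone A3 with T6-LOH to 83.9 TPM in PSC5 Rosa (423-fold), and Oas1a from 0.299 to 126 TPM (422-fold). Clone A3 had the lowest levels of these OAS genes with T6-LOH and T69A, where Oas1a stood at 0.299 and 1.30 TPM and Oas3 at 0.224 and 0.164 TPM. With T12-LOH the same clone held 8.23 TPM of Oas1a. In organoids the median range was 31.8-fold, without Cmpk2, Ifi44 and Ifi27l2a, whose lowest level was 0 TPM. The smallest was that of Irf1 (1.99-fold, 29.4 to 58.6 TPM). Wide ranges there can rest on few reads, as for Rsad2 (427-fold), whose lowest level of 0.0162 TPM was 1 estimated count.

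PSC5 and PSC4 lines were compared with the same organoids, T6-LOH, in 3 libraries each. In the PSC fraction Isg15 stood at 758 TPM in C5, 221 TPM in D4 and 1083 TPM in Rosa of PSC5, against 110 TPM in A3, 155 TPM in B4 and 381 TPM in Rosa of PSC4. D4 lay below Rosa of PSC4, so the groups overlapped (log2 1.70, SE 0.45, adjusted p = 0.297). All 32 genes had a fold change above 0 (median log2 1.67, against -0.0037 over all genes), but 0 were called higher and 0 lower, beside 0.014% higher and 0% lower of the 14236 genes tested. Here 28 of the 32 had an unadjusted p under 0.05, as had 1797 of all genes. DESeq2, in contrast, called 23 of the 32 higher in PSC5, beside 2.56% of the genes tested. For 7 genes, Irf1, Oas1a, Oas2, Oas3, Oasl1, Xaf1 and Ifi27l2a, every PSC5 library lay above every PSC4 library, as was so for 12.9% of the genes tested. Cd74 stood at 54.9, 71.9 and 112.9 TPM in C5, D4 and Rosa of PSC5, against 17.1, 31.7 and 68.8 TPM in A3, B4 and Rosa of PSC4 (log2 1.10, SE 0.28, adjusted p = 0.28), and its part in these differences was not tested.

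Ifi27l2a, a small protein strongly induced by interferon, stood at 877 TPM in C5, 324 TPM in D4 and 1342 TPM in Rosa of PSC5, against 26.3 TPM in A3, 109 TPM in B4 and 134 TPM in Rosa of PSC4 (log2 3.15, SE 0.61, adjusted p = 0.25). Oas2 stood at 59.8, 8.18 and 83.9 TPM in C5, D4 and Rosa of PSC5, against 0.198, 2.01 and 2.77 TPM in A3, B4 and Rosa of PSC4 (log2 4.87, SE 1.04, adjusted p = 0.26). Both show the PSC5 lines above the PSC4 lines without overlap, with D4 far below the other PSC5 lines. Ifit2 stood at 36.2, 29.6 and 37.1 TPM in C5, D4 and Rosa of PSC5, against 30.0, 36.2 and 31.6 TPM in A3, B4 and Rosa of PSC4 (log2 0.02, SE 0.15).

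The T6-LOH organoids were compared in the same way by the parent of their PSCs. Isg15 stood at 75.8 TPM with C5, 4.43 TPM with D4 and 139 TPM with Rosa of PSC5, against 2.27 TPM with A3, 3.39 TPM with B4 and 11.2 TPM with Rosa of PSC4 (log2 3.69, SE 1.33, adjusted p = 0.33). Organoids grown with D4 thus lay within the range of those grown with PSC4 lines. Again all 32 fold changes were above 0 (median log2 3.03, against -0.0013 over all genes) and 0 genes were called in either direction, beside 0.358% higher and 0.387% lower of 13953 genes. An unadjusted p under 0.05 was reached by 11 of the 32 and by 2345 of all genes, and DESeq2 called 10 of the 32 higher, beside 1.83%. Without the organoids grown with D4 (library 16), 28 of the 32 were called higher with PSC5, beside 1.3%. Nearest to the threshold with all libraries were Mx1 (log2 1.72, SE 0.30, adjusted p = 0.051) and Ifitm3 (log2 3.54, SE 0.76, adjusted p = 0.081). Only for Ifit2 did the groups not overlap, at 0.512, 0.404 and 1.498 TPM with C5, D4 and Rosa of PSC5, against 0.287, 0.261 and 0.282 TPM with A3, B4 and Rosa of PSC4. Among the genes tested, 11% had every PSC5 library above every PSC4 library.

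Egfr KO and WT PSCs were compared over all 12 PSC libraries, with co-culture as a block, to ask whether loss of the receptor moves these genes. None of the 32 passed, with 0 called higher and 0 lower, beside 0.0271% higher and 0.0678% lower of 14756 genes. The median log2 fold change was -0.74 over the 32, against 0.0029 over all genes, and 30 of the 32 were below 0. An unadjusted p under 0.05 was reached by 10 of the 32 and by 1992 of all genes, and DESeq2 called 3 lower in KO, namely Gbp7, Rsad2 and Cmpk2, beside 2.35% of the genes tested. For all 32 genes the KO and WT libraries overlapped, and 1.31% of the genes tested did not overlap.

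Isg15 ranged from 110 to 758 TPM in KO PSCs with a median of 179, against 464, 381, 106 and 1083 TPM in Rosa grown with T69A, T6-LOH and T12-LOH and in PSC5 Rosa (log2 -0.89, SE 0.37, adjusted p = 0.35). Irf7, the factor that amplifies interferon production, ranged from 26.9 to 154.5 TPM in KO with a median of 41.4, against 128, 81.8, 20.2 and 322 TPM in the same Rosa libraries (log2 -1.04, SE 0.42, adjusted p = 0.34). In both, the Rosa library grown with T12-LOH was below every KO library. Rsad2, or viperin, which makes a chain-ending nucleotide, ranged from 1.22 to 23.8 TPM in KO with a median of 2.44, against 11.25, 9.14, 6.595 and 36.1 TPM (log2 -1.90, SE 0.47, adjusted p = 0.16). It was below the own Rosa library in 8 of 8 KO libraries, as were Oas1a and the guanylate-binding GTPase Gbp2. Gbp2 ranged from 27.4 to 105 TPM in KO, with a median of 34.4, against 67.0, 71.1, 41.1 and 129.5 TPM (log2 -0.79, SE 0.25, adjusted p = 0.25).

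Fold changes below 0 that did not pass were also found in the RNA-binding Ifit genes. Ifit1 ranged from 27.4 to 116 TPM in KO with a median of 36.9, against 81.7, 75.1, 25.8 and 162 TPM in Rosa with T69A, T6-LOH and T12-LOH and in PSC5 Rosa (log2 -0.70, SE 0.39, adjusted p = 0.46). Ifit3 ranged from 13.4 to 195.7 TPM in KO with a median of 24.7, against 60.9, 47.9, 11.3 and 275 TPM (log2 -0.79, SE 0.56, adjusted p = 0.55). Usp18, the protease that removes Isg15 from proteins and damps the receptor, ranged from 19.35 to 123 TPM in KO with a median of 30.2, against 78.9, 58.1, 17.6 and 151 TPM (log2 -0.70, SE 0.46). In each of these 3 genes the lowest value belonged to Rosa grown with T12-LOH. Stat2 ranged from 29.2 to 94.45 TPM in KO with a median of 42.3, against 72.6, 73.65, 25.5 and 100.2 TPM (log2 -0.25, SE 0.42), with 4 of 8 KO libraries below their own Rosa. Bst2 ranged from 159 to 1066 TPM in KO with a median of 295, against 636, 461, 167 and 1381 TPM (log2 -0.75, SE 0.39). Ifitm3 ranged from 1489 to 2941 TPM in KO with a median of 1920.0, against 2899, 2345, 1689 and 3559 TPM (log2 -0.44, SE 0.19). For both membrane proteins the KO libraries spanned much of the WT range. Oasl2 ranged from 34.4 to 271 TPM in KO with a median of 73.3, against 186.5, 120.3, 40.9 and 365 TPM (log2 -0.62, SE 0.46). Ifih1 ranged from 7.40 to 32.3 TPM in KO with a median of 14.85, against 23.1, 18.8, 9.795 and 45.35 TPM (log2 -0.54, SE 0.35). The lowest values of these 2 genes belonged to clone A3 with T6-LOH. Rtp4, a membrane protein that hinders the copying of some viruses, ranged from 27.1 to 138 TPM in KO with a median of 42.65, against 91.4, 71.6, 21.0 and 161 TPM (log2 -0.44, SE 0.40). Mx1 ranged from 0.553 to 5.57 TPM in KO with a median of 1.83, against 3.17, 5.16, 1.36 and 17.2 TPM (log2 -0.91, SE 0.55). Ifi27l2a ranged from 26.3 to 877 TPM in KO with a median of 100.4, against 370, 134, 31.0 and 1342 TPM (log2 -0.85, SE 0.47). The adjusted p-values of these 5 genes lay between 0.459 and 0.641. Irf1 differed in sign. It ranged from 49.7 to 133 TPM in KO with a median of 84.8, against 69.8, 79.1, 51.2 and 119 TPM (log2 0.17, SE 0.16, adjusted p = 0.64), and was below its own Rosa in 2 of 8 KO libraries.

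**Figure D4:**
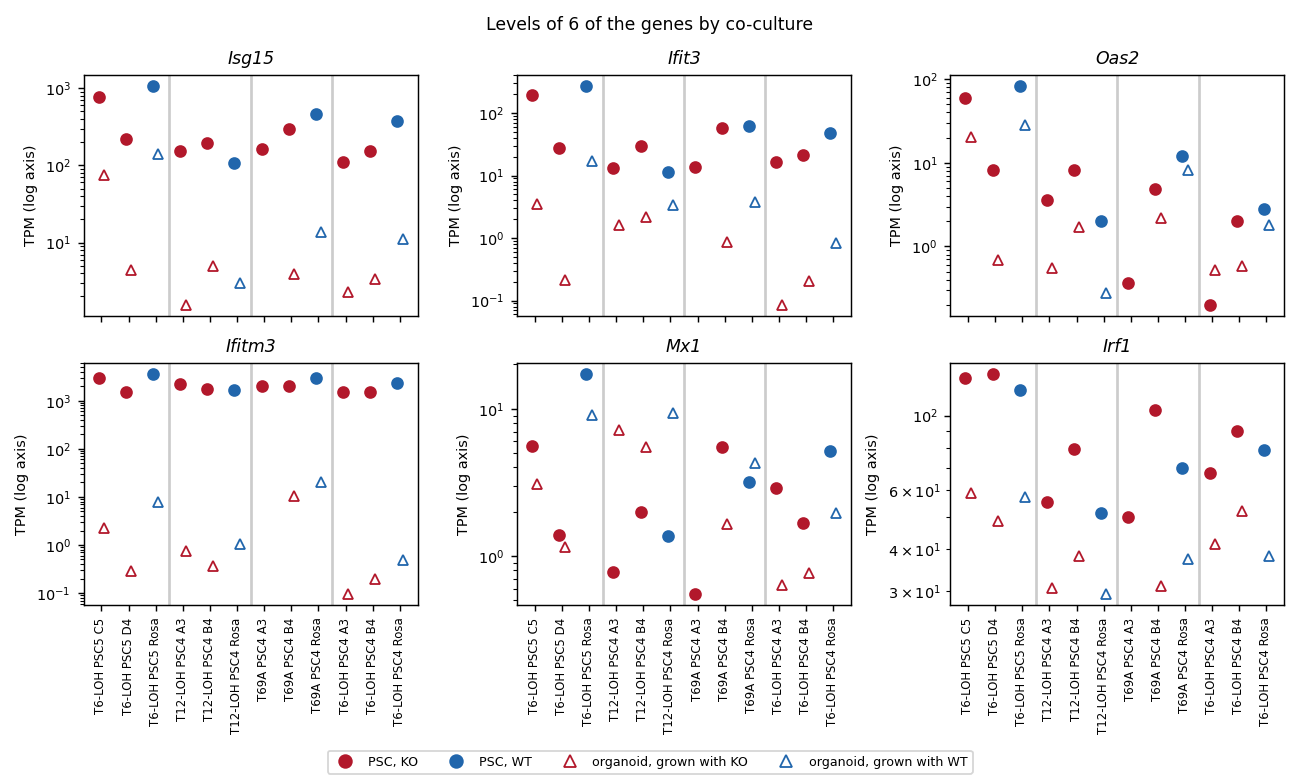
TPM on log axes of 6 genes in PSC libraries (filled circles) and organoid libraries (open triangles) by co-culture, KO in red and WT in blue. Isg15 and Oas2 peak in PSC5 C5 and PSC5 Rosa in both fractions, and Ifit3 does so in PSCs. Ifitm3 separates the fractions, and Mx1 does not. Of these 6 genes Irf1 varies least in organoids (1.99-fold) and Ifitm3 in PSCs (2.39-fold, beside 2.67-fold for Irf1).

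Split by co-culture, the sign of the mean difference was not the same with every organoid line. The mean over the 32 genes of the log2 difference between a KO library and its own Rosa was -0.46 in C5 and -2.17 in D4 of PSC5, -1.71 in A3 and -0.63 in B4 with T69A, and -1.56 in A3 and -1.04 in B4 with T6-LOH. With T12-LOH it was 0.39 in A3 and 0.70 in B4. Both clones were below Rosa for 28 genes with PSC5, for 25 with T69A and for 30 with T6-LOH and PSC4, but for 3 with T12-LOH, where both were above it for 24. Rosa grown with T12-LOH (library 23) was the lowest of the 12 PSC libraries for 13 of the 32 genes. In each co-culture the differences are from 1 Rosa library. Clones A3 and B4 themselves had means of log2(CPM + 0.5) of 4.66 and 4.97 with T12-LOH. These means were 3.875 and 4.39 with T6-LOH, and 4.185 and 5.265 with T69A. The cause of the reversal was not tested. The KO effect with T12-LOH minus that with T6-LOH was tested in the 9 PSC4 libraries. This fit did not include the PSC line, so libraries of 1 clone were treated as independent. All 32 fold changes were above 0 (median log2 1.91, against 0.01 over all genes), and 0 were called in either direction, beside 0% higher and 0% lower of 14968 genes. There 12 of the 32 and 124 of all genes had an unadjusted p under 0.05, and DESeq2 called Zbp1 and Bst2, beside 0.0334% of the genes. The same contrast of Cd74 was 3.15 on the log2 scale (SE 0.62, adjusted p = 1).

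**Figure D5:**
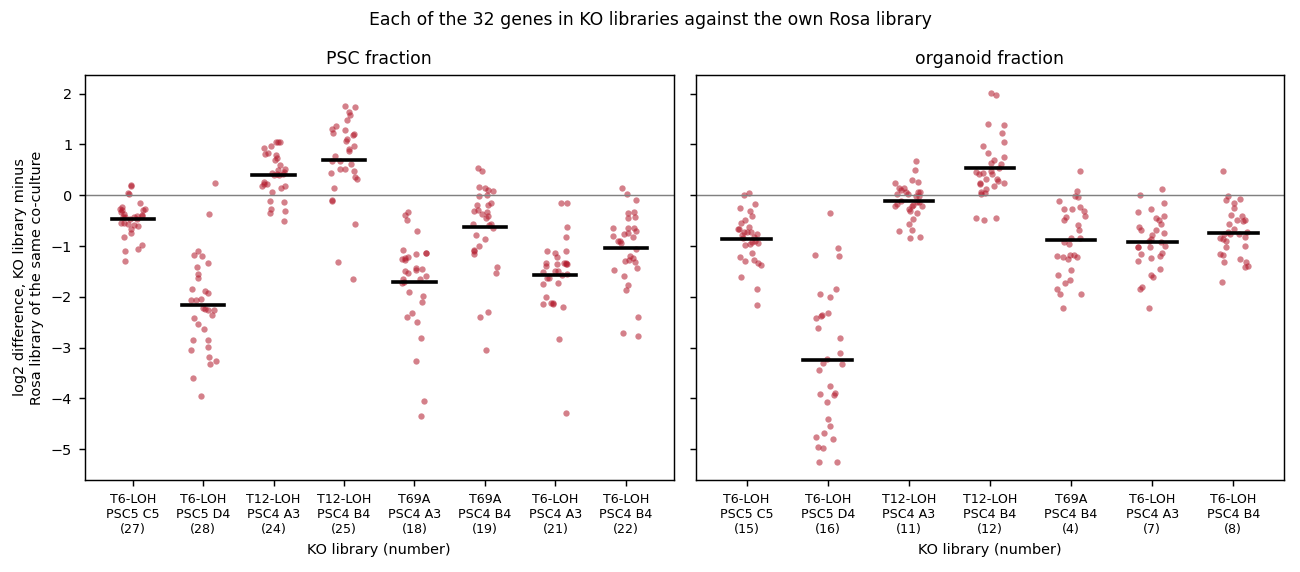
Log2 difference between each KO library and the Rosa library of its co-culture for each of the 32 genes (dots) with their mean (black line), in PSCs (left) and organoids (right). In PSCs the means lie below 0 except in both T12-LOH libraries (0.39 and 0.70), and clone D4 has the lowest mean in both fractions (-2.17 in PSCs and -3.25 in organoids).

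Organoids grown with KO PSCs were compared in the same way with those grown with WT PSCs, over 11 libraries. Mx1 and Ifitm3 were lower with KO PSCs, so that 0 of the 32 were called higher and 2 lower, beside 3.82% higher and 5.34% lower of 14750 genes. The median log2 fold change over the 32 was -1.16, against -0.01 over all genes, and 5 of the 32 had an unadjusted p under 0.05, as had 4090 of all genes. The share called lower was thus near that of all genes. Mx1 stood at 3.09 and 1.16 TPM with C5 and D4, 7.20 and 5.47 TPM with A3 and B4 in T12-LOH, 1.66 TPM with B4 in T69A, and 0.632 and 0.767 TPM with A3 and B4 in T6-LOH. With Rosa it stood at 9.05 TPM (PSC5), 9.40 TPM (T12-LOH), 4.29 TPM (T69A) and 1.95 TPM (T6-LOH). It was lower than its own Rosa in 7 of 7 libraries, although the groups overlapped across co-cultures (log2 -1.08, SE 0.23, adjusted p = 0.024).

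Ifitm3 stood at 2.22 and 0.285 TPM with C5 and D4, 0.737 and 0.363 TPM with A3 and B4 in T12-LOH, 10.5 TPM with B4 in T69A, and 0.0962 and 0.193 TPM with A3 and B4 in T6-LOH. With Rosa it stood at 7.94 TPM (PSC5), 1.06 TPM (T12-LOH), 20.9 TPM (T69A) and 0.488 TPM (T6-LOH). It too was lower than its own Rosa in 7 of 7 libraries (log2 -1.66, SE 0.45, adjusted p = 0.046). Many of these levels rest on few reads. Estimated counts were 23 and 3 with C5 and D4, 8 and 3 in T12-LOH, 96 in T69A, and 1 and 2 in T6-LOH. With Rosa they were 82 (PSC5), 10 (T12-LOH), 186 (T69A) and 6 (T6-LOH). Fibroblast markers, which include no member, summed to 0.924 to 4.84 TPM in organoids with KO PSCs, against 2.40 to 12.7 TPM in those with WT PSCs. Among them Vim was itself lower with KO PSCs (log2 -1.04, SE 0.30, adjusted p = 0.046). So were Dcn (log2 -4.15, adjusted p = 0.0025), Col1a1 (-1.45, 0.0136), Col3a1 (-2.78, 0.0369) and Sparc (-1.19, 0.0382). Col1a2 (log2 -2.14, adjusted p = 0.117) and Pdgfra (-0.60, 0.11) had the same sign but did not pass. The part of fibroblast RNA in the Ifitm3 difference was not tested. Mx1 passed in 11 of 20 other settings and Ifitm3 in 4 of 20. Mx1 lost its call without library 2, 4, 6, 7 or 14 (adjusted p between 0.0514 and 0.130), and Ifitm3 without any single library other than 16 (adjusted p between 0.0553 and 0.268). Ifit3 was lower in 7 of 7 libraries as well, but did not pass (log2 -2.22, SE 0.69, adjusted p = 0.092).

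Most of the other members had the same sign in organoids. Isg15 ranged from 1.54 to 75.8 TPM with KO PSCs and had a median of 3.91, against 139, 2.98, 13.6 and 11.2 TPM with Rosa of PSC5 and in T12-LOH, T69A and T6-LOH (log2 -1.54, SE 0.80, adjusted p = 0.27). Irf7 ranged from 4.645 to 76.1 TPM with KO PSCs with a median of 9.84, against 148, 5.25, 37.75 and 18.2 TPM (log2 -0.98, SE 0.64, adjusted p = 0.37). Usp18 ranged from 0.496 to 18.85 TPM with a median of 1.97, against 32.8, 1.97, 7.92 and 3.145 TPM (log2 -1.20, SE 0.83). In all 3 genes the highest KO value came from organoids with C5, above 3 of the 4 Rosa libraries. Rtp4 ranged from 0.562 to 32.04 TPM with a median of 1.64, against 53.5, 1.93, 7.855 and 3.97 TPM (log2 -1.22, SE 1.10).

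Ifit1 ranged from 0.474 to 10.1 TPM with KO PSCs with a median of 1.07, against 24.5, 2.02, 3.925 and 2.03 TPM with Rosa of PSC5 and in T12-LOH, T69A and T6-LOH (log2 -1.59, SE 0.81). Oasl2 ranged from 1.41 to 86.8 TPM with a median of 4.46, against 143, 1.71, 17.9 and 12.9 TPM (log2 -1.15, SE 0.79). Bst2 ranged from 27.5 to 100.5 TPM with a median of 46.6, against 195.5, 46.9, 53.0 and 44.1 TPM (log2 -0.55, SE 0.40). For these 3 genes Rosa in T12-LOH lay within the KO range. Stat2 ranged from 4.94 to 13.9 TPM with a median of 8.38, against 24.0, 9.47, 18.3 and 7.27 TPM (log2 -0.72, SE 0.28, adjusted p = 0.161). Ifih1 ranged from 3.34 to 10.5 TPM with a median of 3.77, against 15.8, 4.89, 10.4 and 4.00 TPM (log2 -0.40, SE 0.35). Gbp2 ranged from 0.466 to 1.46 TPM with a median of 0.875, against 4.01, 0.936, 1.34 and 0.885 TPM (log2 -0.80, SE 0.39). None of these passed. Rsad2 ranged from 0.0162 to 2.90 TPM with a median of 0.129, against 6.94, 1.03, 0.0169 and 0.268 TPM (log2 -1.59, SE 0.86). Ifi27l2a was listed at 0 in 3 of the 7 libraries with KO PSCs and reached 2.35 TPM with C5, against 3.06, 0.182, 0.764 and 0.281 TPM (log2 -1.52, SE 0.78). Irf1 ranged from 30.7 to 58.6 TPM with a median of 41.3, against 57.1, 29.4, 37.3 and 38.2 TPM (log2 0.05, SE 0.14), the sole fold change above 0 among the 32.

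Split by co-culture, the mean over the 32 genes was above 0 in 1 of 7 libraries. This mean log2 difference from the own Rosa was -0.86 with C5 and -3.25 with D4 in PSC5, -0.89 with B4 in T69A, and -0.92 with A3 and -0.74 with B4 in T6-LOH. In T12-LOH it was -0.12 with A3 and 0.53 with B4, and both libraries were above Rosa for 13 genes and below it for 3. The difference of this effect between organoid lines was not tested in organoids.

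The organoid lines were compared among the 8 organoid libraries grown with PSC4 lines, with the PSC line as a covariate. In T12-LOH 9 genes were higher and 2 lower than in T6-LOH of the 30 tested, beside 31.2% higher and 30.8% lower of 14541 genes, so the share of members called was not above that of all genes. Mx1 stood at 7.20, 5.47 and 9.40 TPM in T12-LOH with A3, B4 and Rosa, against 0.632, 0.767 and 1.95 TPM in T6-LOH (log2 2.93, SE 0.21, adjusted p = 1.95e-06). Rsad2 stood at 0.537, 1.03 and 1.03 TPM in T12-LOH, against 0.0285, 0.0575 and 0.268 TPM in T6-LOH (log2 2.97, SE 0.49, adjusted p = 0.00045). Ifit3 stood at 1.63, 2.19 and 3.38 TPM in T12-LOH, against 0.0842, 0.203 and 0.822 TPM in T6-LOH (log2 2.90, SE 0.43). In these 3 genes the lines did not overlap. Of all members, called or not, 9 had every T12-LOH library above every T6-LOH library, these 3 among them. In 3 others, Irf1, Oas1a and Zbp1, every T12-LOH library lay below, and 20 overlapped. The share of all genes without overlap is not given, so these counts do not single out the members. Also called higher were Gbp7, Ifit3b, Ifitm3, Ifit2, Stat2 and Bst2, by 0.57 to 1.85 on the log2 scale. Irf1 and Oasl1 were called lower, by 0.49 and 0.40. Ifitm3 had 8, 3 and 10 estimated counts in T12-LOH with A3, B4 and Rosa, against 1, 2 and 6 in T6-LOH. Fibroblast markers summed to 4.84, 3.29 and 9.12 TPM in T12-LOH organoids with A3, B4 and Rosa, against 1.10 to 2.40 TPM in T6-LOH with PSC4 lines. Their member Vim was higher in T12-LOH (log2 3.59, SE 0.35, adjusted p = 1.25e-05), and the part of fibroblast RNA in the call of Ifitm3 was not tested.

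With 1 library left out, 18 genes were higher without library 10, beside 29.3% of the genes tested, and 7 were lower without library 12, beside 26.4%. Without library 7, 8 or 11 it was 4 higher, beside 26%, 27.6% and 25.9%.

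In T69A organoids 9 genes were higher and 2 lower than in T6-LOH, beside 25.3% higher and 26% lower of all genes. It was 4 higher without library 2, beside 17.3%, and 17 without library 10, beside 26.4%. Without library 4 or 6, 0 were lower, beside 19% and 24%. Ifitm3 stood at 10.5 TPM with B4 and 20.9 TPM with Rosa in T69A, against 0.0962, 0.193 and 0.488 TPM with A3, B4 and Rosa in T6-LOH (log2 5.86, SE 0.44, adjusted p = 5.5e-06). Fibroblast markers summed to 4.50 and 12.7 TPM in the same T69A libraries, against 1.10 to 2.40 TPM in T6-LOH with PSC4 lines, and their part in this difference was not tested. Rsad2, higher in T12-LOH, was lower in T69A, at 0.0162 and 0.0169 TPM (log2 -2.84, SE 0.95, adjusted p = 0.031), and Oasl1 was lower by 0.44. Each T69A library held 1 estimated count of Rsad2. The T6-LOH libraries held 2 with A3, 4 with B4 and 22 with Rosa, so this call rests on few reads. Mx1, Ifit3, Gbp7, Xaf1, Stat2, Ifih1, Dhx58 and Ddx58 were higher, by 0.94 to 2.44 on the log2 scale. PSC4 cells themselves showed no call by organoid line. With T12-LOH against T6-LOH 0 of 32 were called higher and 0 lower, beside 8.3% higher and 9.03% lower of 14446 genes, and 2 had an unadjusted p under 0.05, as had 4701 of all genes (median log2 0.055). With T69A against T6-LOH it was again 0 and 0, beside 2.71% higher and 1.4% lower, with 1 unadjusted p under 0.05, against 3656 of all genes, and a median of 0.57. Without Rosa library 23 edgeR called 10 of the 32 higher in PSCs grown with T12-LOH, beside 5.41% of the genes tested, and 6 in those grown with T69A, beside 2.97%.

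The sources of the signal were read for 17 interferon genes. Ifnb1, interferon beta, had 7 estimated counts in PSC5 Rosa and 15 in C5, 0 in D4, 0 to 4 in the PSC4 libraries, and 0 in all 11 organoid libraries. Ifna4 had 6.08 in C5 and 6 in PSC5 Rosa, and at most 4 elsewhere. Ifnz had more, with 26.9 estimated counts in PSC5 Rosa, 26.3 in C5 and 3.69 in D4. It had 2.07 to 24.1 in the PSC4 libraries and 1.39 to 7.24 in organoid libraries. Between PSC5 and PSC4 lines with T6-LOH the log2 fold change of Ifnz in PSCs was 0.30 (SE 0.77, adjusted p = 0.90 by edgeR). Ifng, Ifnl2 and Ifnl3 had 0 counts in all 23 libraries, which allows up to 3 counts each per library. Ifne, an interferon of epithelia, had 20 to 155 counts in organoids and at most 1 in PSCs (log2 -8.15, SE 0.38, adjusted p = 4.53e-10). The counts of Ifnb1 and Ifna4 are too few for a comparison between cultures.

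Of 52 further genes of the pathway, 37 were tested between the fractions. In PSCs 20 were higher and 9 lower, beside 36.3% higher and 37.6% lower of all genes tested. The receptor of type I interferon was higher there, with 48.2 to 78.9 TPM of Ifnar1 in PSCs and 16.3 to 32.3 TPM in organoids (log2 1.33), and 64.9 to 173 TPM of Ifnar2 in PSCs and 12.2 to 25.5 TPM in organoids (log2 2.57). Ifnlr1, the receptor of lambda interferons, was at 0.0123 to 1.71 TPM in PSCs and 8.51 to 17.0 TPM in organoids (log2 -5.96), and Ifngr1 was lower in PSCs by 0.81. Irf3, which acts before interferon is made, stayed between 29.8 and 48.0 TPM in PSCs and between 28.5 and 41.3 TPM in organoids.

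Between KO and WT, 0 of the 35 pathway genes tested passed in PSCs. In organoids 0 were higher and 2 lower with KO PSCs, beside 3.82% higher and 5.34% lower of all genes. The 2 were Jak2 (log2 -0.31, adjusted p = 0.027) and Tyk2 (log2 -0.22, adjusted p = 0.033). The log2 fold changes of Ifnar1, Ifnar2, Ifngr1 and Irf3 lay between -0.23 and 0.14 in both fractions. Between PSC5 and PSC4, 0 pathway genes passed in either fraction.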

How the data were processed

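RNA-seq was read from 12 PSC and 11 organoid libraries. The authors quantified transcripts with Salmon 1.9.0, and GRCm39 is named as build, per the submitters' processing notes. The sources used here do not give the library kit, strand or annotation. The deposited files hold, per transcript, an estimated count of reads and a TPM. Transcripts were named through GENCODE M21, which matched 115973 of 117135 (99.01%), and the unmatched 0.364 to 0.443% of counts were left out. Estimated counts were summed per gene and rounded, and the authors' TPM values were summed per gene for levels. Depth was 21823084 to 34828131 counts per library.

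Comparisons used edgeR 4.0.16 quasi-likelihood tests (R 4.3.3, TMM scaling, low counts removed by filterByExpr, Benjamini-Hochberg adjustment over all genes tested, threshold 0.05) with co-culture, culture, PSC line or genotype as a block or covariate. The difference between KO effects was fitted with organoid line, genotype and their interaction, without the PSC line. The scripts were tested on simulated data. Alternatives were DESeq2 1.42.0, limma 3.58.1 with the PSC line as a random effect, RLE scaling, no low-count filter, no block, other sample sets, a pseudocount of 2 CPM in place of 0.5, and each library left out. Restrictions to some co-cultures or clones were chosen after seeing the data. Promoter motifs were read with Python 3.11.15.

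The 32 genes, the lists of pathway and further interferon-stimulated genes, and the tests were chosen with earlier results of these data known. By the rule for named genes, 16 genes with at least 1 per role are given by library or range, together with any gene that passed where 5 or fewer did. The other members are given by ranges and counts. Of the other lists, up to 8 genes per comparison may be named. One gene of the pathway list is not reported here.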

Additional observations from a re-analysis of the deposited data

Results flagged for a closer look

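Of 68 groups of 4 to 8 libraries examined for a library that stands apart from its group by its gap to the nearest other library, 26 showed one. Chance marks about 1 in 20 groups, and the marked genes share their libraries, so these are not independent events.

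Clone C5 accounted for most of them. In the PSC KO libraries it stood apart (library 27) at 758.4 TPM for Isg15, 195.7 TPM for Ifit3, 154.5 TPM for Irf7, 1066 TPM for Bst2, 23.78 TPM for Rsad2, 122.6 TPM for Usp18, 105.1 TPM for Gbp2 and 877.0 TPM for Ifi27l2a. In the organoids with KO PSCs those of clone C5 stood apart (library 15) at 75.8 TPM for Isg15, 10.06 TPM for Ifit1, 76.11 TPM for Irf7, 86.78 TPM for Oasl2, 2.899 TPM for Rsad2, 18.85 TPM for Usp18, 32.04 TPM for Rtp4 and 2.354 TPM for Ifi27l2a. Their mean over the 32 genes was 3.711 on the log2 CPM scale, against 2.208 in the next library.

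PSC5 Rosa did so among the WT libraries. Its PSCs (library 26) stood apart at 36.1 TPM for Rsad2. The organoids grown with it (library 14) stood apart at 139.1 TPM for Isg15, 24.49 TPM for Ifit1, 143.0 TPM for Oasl2, 195.5 TPM for Bst2, 6.938 TPM for Rsad2, 53.5 TPM for Rtp4 and 4.014 TPM for Gbp2. T69A organoids grown with clone B4 (library 4) stood apart at 10.53 TPM for Ifitm3.

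In 4 cases both KO libraries lay above their Rosa library in T12-LOH and below it in T6-LOH with PSC4, on the scale of log2(CPM + 0.5). In organoids the mean difference on that scale, KO minus Rosa, was 0.32 in T12-LOH and -0.53 in T6-LOH for Bst2, 0.71 and -1.62 for Usp18, and 1.23 and -1.46 for Rtp4, in the same order of lines. The differences of A3 alone in T12-LOH were 0.015 for Bst2, 0.024 for Usp18 and 0.494 for Rtp4. In TPM, A3 lay just below Rosa for Bst2 (46.63 against 46.87 TPM) and Usp18 (1.968 against 1.974 TPM). These differences were not tested. In PSCs the mean over the 32 genes was 0.55 with T12-LOH and -1.3 with T6-LOH, and this mean was not tested either. Gene by gene, edgeR's test of that difference in PSCs called 0 of 32, while 12 had an unadjusted p under 0.05 and DESeq2 called 2.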

How the results depend on the processing

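No member called in the edgeR comparisons above changed sign in another setting. Sign changes of genes that no fit called were not counted. The calls between fractions, 28 higher and 1 lower, held whichever library was left out. Under DESeq2 3 members were lower in KO PSCs and 4 in organoids with KO PSCs, 23 and 10 were higher with PSC5 in PSCs and organoids, 4 were lower in T12-LOH and 1 in T69A organoids, and 2 had a positive difference between KO effects. For organoids with KO PSCs and for T12-LOH and T69A organoids, DESeq2's share of all genes is not given. Those 3 member counts therefore do not single out the members. With edgeR, 5.34%, 30.8% and 26% of all genes were lower in these comparisons. DESeq2 called 613, 612, 524, 1124 and 6 genes in all for KO PSCs, PSC5 in PSCs, PSC5 in organoids, T69A in PSCs and that difference, against 14, 2, 104, 594 and 0 with edgeR.

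Without the low-count filter, members called were 1 in organoids with KO PSCs, and 1 and 3 with PSC5 in PSCs and organoids, and genes called were 23 in KO PSCs, 47 and 485 with PSC5. RLE scaling called 1 member with PSC5 in organoids. Replicate numbers in the labels are unique to each library, so co-culture, or culture between fractions, served as the block. Without co-culture 0 members and 0 genes were called in organoids with KO PSCs and 4 genes in KO PSCs. Limma called 1 member in those organoids and 0 genes in KO PSCs. With all 12 PSC libraries 110 genes were called for PSC5. Genotype in place of the PSC line left 1 member lower in T69A organoids, 151 genes for T12-LOH and 1 gene for T69A in PSCs. The shares of all genes called are not given for these settings, so the member counts do not single out the members.

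Sets chosen after seeing the data gave, for KO PSCs, 42 genes with PSC4 alone, 0 without T12-LOH, 0 without T69A and 6 without clone B4. In organoids with KO PSCs they gave 191 genes with PSC4 alone, 729 without T12-LOH and 418 without T69A, and 1 member without T12-LOH, 0 without T69A and 0 without B4. Shares of all genes are not given for these sets, so these member counts do not single out the members either.

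Leaving out each library in turn, genes called ranged from 0 to 51 in KO PSCs, 203 to 1832 in organoids with KO PSCs, 0 to 3 and 0 to 243 with PSC5 in PSCs and organoids, and 902 to 2622 with T12-LOH and 1 to 856 with T69A in PSCs. Members called ranged from 0 to 4 lower in organoids with KO PSCs, 0 to 28 higher with PSC5 in organoids, 4 to 18 higher and 1 to 7 lower in T12-LOH organoids, 4 to 17 higher and 0 to 3 lower in T69A organoids, 0 to 10 higher and 0 to 1 lower with T12-LOH in PSCs, and 0 to 6 higher with T69A in PSCs. Where no share of all genes is given above, these counts do not single out the members. The difference between KO effects could not be fitted without Rosa library 20 or 23. The cause of these changes was not tested. Each Rosa line has 1 library per co-culture, so line, clone and culture cannot be told apart.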

Other observations

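A further 56 interferon-stimulated genes outside the 32 gave 40 higher and 7 lower in PSCs than in organoids, of 55 tested. The shares of all genes were 36.3% higher and 37.6% lower. Guanylate-binding Gbp5 (log2 6.46) and the nuclear-body protein Sp100 (6.38) were higher in PSCs, and the cytidine deaminase Apobec3 was lower there, at 1.79 to 11.5 TPM in PSCs and 87.2 to 214.9 TPM in organoids (log2 -5.10, SE 0.26, adjusted p = 1.31e-09 by edgeR). Between KO and WT 0 of 55 passed in PSCs, and in organoids Cxcl10, a chemokine that draws T cells, was the single call of 51 tested, lower with KO PSCs (log2 -1.30, SE 0.23, adjusted p = 0.0109). Between PSC5 and PSC4 0 of 55 passed in PSCs and 0 of 49 in organoids, and between KO effects 0 of 54.

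Organoid lines differed in single genes of the response. Tmem173 (STING), the adaptor of cytosolic DNA sensing, stood at 0.368 and 1.30 TPM in T69A organoids, against 58.7 to 72.6 TPM in T6-LOH with PSC4 lines (log2 -6.33, SE 0.16, adjusted p = 9.91e-09). Cxcl10 stood at 18.4, 14.2 and 40.0 TPM in T12-LOH organoids with A3, B4 and Rosa, against 0.9145, 0.432 and 1.71 TPM in T6-LOH (log2 4.45, SE 0.19, adjusted p = 5.9e-08). In all, 13 of 49 further genes were higher and 8 lower in T12-LOH, beside 31.2% higher and 30.8% lower of all genes tested. In T69A 19 were higher and 12 lower, beside 25.3% higher and 26% lower. In PSC4 cells 3 of 53 were higher and 0 lower with T12-LOH, beside 8.3% higher and 9.03% lower of all genes. With T69A 0 passed, beside 2.71% higher and 1.4% lower.

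Of the pathway list, 16 genes were higher and 10 lower in T12-LOH organoids, and 13 higher and 7 lower in T69A organoids, of 35 tested. The shares of all genes were 31.2% higher and 30.8% lower in T12-LOH, and 25.3% and 26% in T69A. In PSC4 cells 8 were higher and 2 lower with T12-LOH, among them the kinase gene Ikbke (log2 1.36, SE 0.13, adjusted p = 0.00116), and 4 higher and 0 lower with T69A. There the shares of all genes were 8.3% higher and 9.03% lower with T12-LOH, and 2.71% and 1.4% with T69A.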
